A study of Mus musculus with 112 samples.

Results

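The collagen chain genes were taken as every gene whose symbol is Col, a number, the letter a and a number, each encoding 1 chain of a collagen. Of the 35556 probe sets in the table, 21789 carried a single gene symbol and gave 19938 genes, and 46 of these probe sets matched the pattern and gave 44 genes. Their expression was measured in epididymal white adipose tissue (WAT), the visceral fat pad beside the epididymis, of 112 male mice with the Affymetrix Mouse Gene 1.0 ST array, each mouse having an array of its own. In each of 7 strains, 8 mice were fed a control diet and 8 a calorie-restricted (CR) diet. The strains were CBA/J, C3H/HeJ, DBA/2J, BALB/cJ, C57BL/6J, 129S1/SvImJ and B6C3F1/J (BALB/cJ and C57BL/6J are written Balbc/J and C57BL6/J in the labels), of which B6C3F1/J is a first-generation hybrid of C57BL/6J and C3H/HeJ and the others are inbred. All mice were housed singly, went onto their diets at 8 weeks of age and were killed at 22 weeks after an overnight fast. The depth of CR was not equal: food was cut further midway in the CR mice of 129S1/SvImJ and C57BL/6J, and BALB/cJ had more food in both arms, its CR mice receiving the amount that controls of the other strains received. Males of 1 age were studied.

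Collagens are made of chains wound around each other in a helix, and the classes differ in what the trimers build. Fibrillar collagens I, III and V form the fibres between cells, collagen IV forms the sheet-like network of basement membranes, which in fat wraps each adipocyte and vessel, and collagen VI forms beaded filaments that join them. Collagens XV and XVIII carry sugar chains and lie at the basement membrane, and the fibril-associated collagens (FACIT) sit on the surface of fibres. In adipose tissue the matrix is made largely by fibroblasts and adipocyte progenitors, with a part from adipocytes, and it is remodelled as fat cells grow or shrink. By class the 44 genes comprised 11 fibrillar chains, 6 of Col4, 6 of Col6, Col15a1 and Col18a1, 9 FACIT chains, 3 network-forming chains of Col8 and Col10, 4 membrane-spanning chains and 3 anchoring fibril or other chains. The values are log2 signals, so that a change is the log2 of a fold, and signals of different probe sets are not read as relative amounts of transcript.

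The upstream stretch of 3 fibrillar chains is shown because they did not move together: Col1a2 and Col3a1 were lower and Col5a3 higher on CR, as described below. Each stretch holds the 250 bases before the start of a RefSeq transcript on GRCm38.p6, written 5' to 3' on the strand of the gene. Capitals mark matches on either strand to the CCAAT box, the GC box core GGGCGG or the TATA box letters TATAAA. Col1a2 lies on the plus strand and the stretch is chr6:4505368-4505617, Col3a1 lies on the plus strand at chr1:45311288-45311537, and Col5a3 lies on the minus strand at chr9:20815068-20815317.
Col1a2: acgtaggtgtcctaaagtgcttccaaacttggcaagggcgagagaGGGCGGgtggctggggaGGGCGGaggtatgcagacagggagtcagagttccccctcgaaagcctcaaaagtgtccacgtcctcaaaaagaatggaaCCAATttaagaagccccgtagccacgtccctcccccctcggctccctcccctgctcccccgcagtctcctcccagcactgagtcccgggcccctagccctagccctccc
Col3a1: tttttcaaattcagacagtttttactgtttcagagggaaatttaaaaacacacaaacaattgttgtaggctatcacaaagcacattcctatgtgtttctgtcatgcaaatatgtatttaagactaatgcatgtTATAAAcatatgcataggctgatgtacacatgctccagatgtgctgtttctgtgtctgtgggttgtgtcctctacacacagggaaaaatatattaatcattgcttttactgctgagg
Col5a3: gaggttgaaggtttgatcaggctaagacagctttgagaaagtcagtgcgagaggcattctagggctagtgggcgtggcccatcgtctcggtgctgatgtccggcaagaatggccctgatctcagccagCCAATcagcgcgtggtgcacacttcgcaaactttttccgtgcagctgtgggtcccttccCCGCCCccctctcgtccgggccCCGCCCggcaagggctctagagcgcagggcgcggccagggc
Col1a2 held 2 matches to GGGCGG and 1 to CCAAT, Col5a3 likewise held 2 and 1, and Col3a1 held 1 match to TATAAA. The annotated Col5a3 gene reaches chr9:20815117, beyond the transcript start used. The last part of its window, with the GGGCGG match nearest that start, therefore lies within the gene. Of the 44 genes, 35 had at least 1 such window and 38 windows in all. GGGCGG, the core of the GC box, was found in 57.9% of these 38 windows and in 32.7% of all 32851 windows of the same length, CCAAT in 34.2% and 33.8%, and TATAAA in 13.2% and 12.4%. Motifs were sought on both strands and did not overlap in the 3 stretches shown.

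Over the 7 strains, 15 collagen chain genes were lower and 3 higher on CR and 26 did not pass the test, the adjusted p (limma, Benjamini-Hochberg over all genes) under 0.05 for the mean of the 7 differences CR minus control. Among all genes 22% were lower and 21.9% higher by the same test, so the collagen genes held a larger share of lower and a smaller share of higher genes than the array as a whole. The median change of the 44 genes was 0.0021 and that of all genes 0.0076. All 18 genes past the test were among the 34 whose mean signal exceeded 6.78, the median of all probe sets, and none of the 10 dimmer genes passed. The 5 largest decreases past the test were those of Col12a1, Col6a5, Col3a1, Col1a2 and Col1a1, and the 3 increases were those of Col5a3, Col15a1 and Col4a2. Bulk tissue was measured, so fewer cells of a type and less RNA per cell cannot be told apart.

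**Figure D1:**
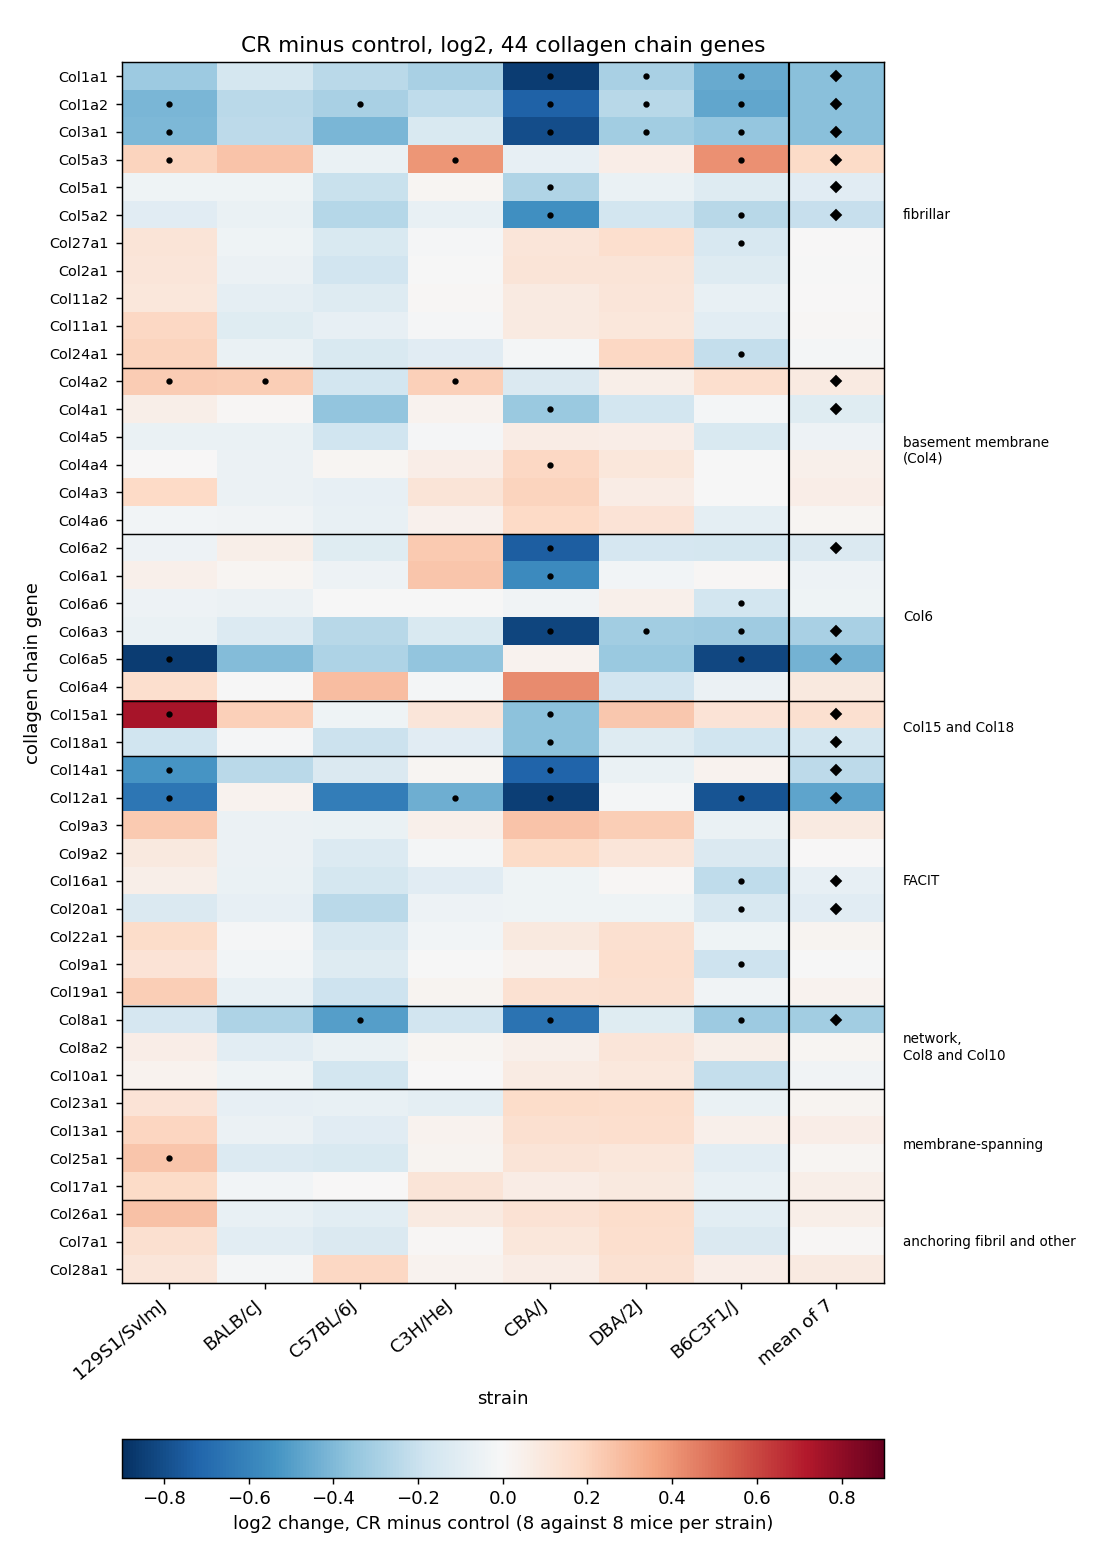
Log2 change CR minus control of each of the 44 collagen chain genes (rows, by class) in each strain and as the mean of the 7 strains (columns); colour gives the change, dots mark an unadjusted p under 0.01 within the strain and diamonds an adjusted p under 0.05 over the strains. The CBA/J column holds 14 dotted decreases, and most of the rows with no mark at the right stay near 0.

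Within the strains the number of collagen genes changed differed widely. The within-strain test was limma on the 16 arrays of the strain at an unadjusted p under 0.01. In CBA/J, 14 of the 44 genes were lower and 1 higher, against 12.3% lower and 8.52% higher among all genes. In B6C3F1/J, 14 were lower and 1 higher, against 14.4% and 16.5%. In CBA/J the count of lower genes stayed between 12 and 14 under every alternative run, while in B6C3F1/J it was 7 with median centring and 9 without control replicate 3. In 129S1/SvImJ, 5 were lower and 4 higher, against 14.2% and 14.4%, but without control replicate 7 the counts were 5 lower and 11 higher. DBA/2J had 4 lower and none higher, against 2.88% and 3.15%. C3H/HeJ had 1 lower and 2 higher, against 7.44% and 9.26%. C57BL/6J had 2 lower and none higher, against 7.82% and 9.8%. BALB/cJ had 1 higher and none lower, against 0.627% and 0.958%, and at an adjusted p under 0.05 no gene of the array passed in this strain. At the adjusted threshold the counts were 12 in 129S1/SvImJ, 15 in CBA/J, 18 in B6C3F1/J, 3 in C3H/HeJ, 2 in C57BL/6J and none in DBA/2J and BALB/cJ, where 32.2%, 21.2%, 34.2%, 15.6%, 16.7%, 0.888% and 0% of all genes passed.

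**Figure D2:**
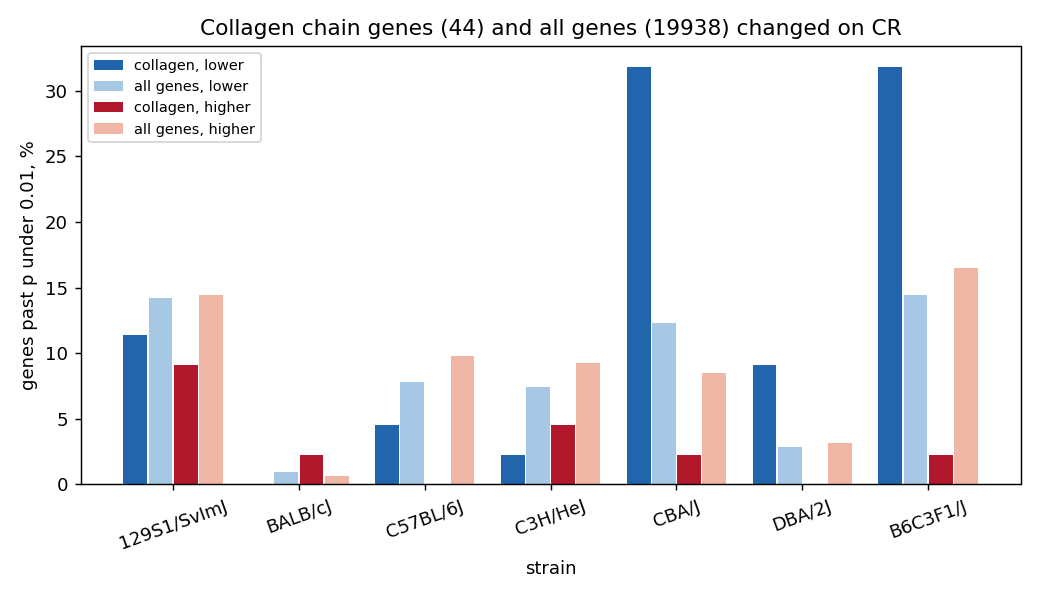
Share of the 44 collagen chain genes (dark bars) and of all 19938 genes (pale bars) past an unadjusted p under 0.01 in each strain, lower (blue) and higher (red) on CR, in per cent. In CBA/J and B6C3F1/J the dark blue bars, 14 of 44 genes each, exceed the pale blue bars of 12.3% and 14.4%. With median centring fewer collagen genes were lower in B6C3F1/J.

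Markers of the cells in the pad also moved. All 8 macrophage markers were lower on CR, with a median change of -1.06, and the mean of their log2 levels lay between 9.25 and 11.001 in the control groups and between 8.75 and 9.42 in the CR groups. Of 7 fibroblast and progenitor markers, 4 were lower, Dpt, Pdgfra, Pdgfrb and Pi16, with a list median of -0.12. The group means of this list lay between 9.32 and 9.64 in controls and between 8.87 and 9.48 on CR. The list mean went from 9.51 to 9.13 in CBA/J, from 9.32 to 8.87 in 129S1/SvImJ and from 9.64 to 9.48 in B6C3F1/J. It also went from 9.53 to 9.32 in C57BL/6J, from 9.49 to 9.34 in BALB/cJ and from 9.47 to 9.40 in DBA/2J. In C3H/HeJ it rose from 9.38 to 9.41. Of 7 adipocyte markers 2 were lower and 1 higher, and the group means of that list lay between 12.69 and 12.94. Of the other lists, 3 of 8 endothelial markers, 1 of 8 smooth muscle and pericyte markers, 1 of 7 mesothelial, 2 of 4 Schwann cell, 1 of 6 skeletal muscle, none of 10 epididymis and none of 6 seminal vesicle markers were lower, and 2 smooth muscle, 1 mesothelial and 3 epididymis markers were higher. The medians of these lists were -0.041, 0.17, 0.061, -0.059, -0.0087, 0.37 and 0.024. The 7 adipocyte markers had mean levels between 11.90 and 13.38. No probe set lies at 0 on this scale. The part of these shifts in the collagen changes was not tested.

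Some arrays stood apart, and they bear on these counts. By a mean of 10 epididymis markers, 18 arrays lay more than 3 median absolute deviations above the median, of which 14 were CR and 4 control: 7 of the 8 C57BL/6J CR mice, 4 of the 8 CBA/J CR mice, and 4 control and 3 CR mice of DBA/2J. The mean of these markers reached 11.51 in C57BL/6J CR replicate 2 and 11.42 in CBA/J CR replicate 5, while no array of 129S1/SvImJ, BALB/cJ, C3H/HeJ or B6C3F1/J exceeded 5.35. Without the 18 arrays the counts over the strains were again 15 lower and 3 higher, CBA/J had 14 lower genes with none higher, and C57BL/6J, left with a single CR mouse that is assumed to vary like the controls, had 1. Without the 13 arrays that stood apart on principal components, the counts over the strains were also 15 and 3, and CBA/J again had 14. Array medians lay between 6.72 and 6.86, correlations between arrays across genes between 0.894 and 0.997, and no pair of arrays was identical.

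Among the 11 fibrillar chains, 5 were lower and 1 higher over the strains. Col1a1 and Col1a2, which together make collagen I, changed by -0.37 (SE 0.0413, adjusted p = 1.53e-13) and -0.37 (SE 0.0354, adjusted p = 1.14e-16), and Col3a1, the chain of collagen III, by -0.38 (SE 0.0443, adjusted p = 1.8e-12). Their means were lower on CR in all 7 strains, as were those of 10.6% of all genes. Of the collagen V chains, which regulate fibre diameter, Col5a1 changed by -0.10 (SE 0.0268, adjusted p = 0.000878) and Col5a2 by -0.21 (SE 0.0331, adjusted p = 5.16e-08), while Col5a3 rose by 0.17 (SE 0.0353, adjusted p = 2.13e-05). The cartilage-type chains Col2a1, Col11a1 and Col11a2 and the chains Col24a1 and Col27a1 lay between -0.02 and 0.011 and did not pass.

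Values are given for the chains with the strongest signals in each class, as the lowest, median and highest of 8 mice on the log2 scale. In CBA/J, Col1a1 ran from 9.98 through a median of 10.09 to 10.78 in controls and from 9.12 through 9.36 to 9.48 on CR, a change of -0.85 (SE 0.0958, adjusted p = 6.54e-06). In B6C3F1/J, Col1a1 ran from 10.17 through a median of 10.46 to 10.66 in controls and from 9.68 through 10.05 to 10.27 on CR, a change of -0.45 (SE 0.0893, adjusted p = 0.000586). In DBA/2J, Col1a1 ran from 9.30 through a median of 9.85 to 9.996 in controls and from 9.36 through 9.47 to 9.67 on CR, a change of -0.29 (SE 0.0855, adjusted p = 0.109). All CBA/J mice on CR lay below all CBA/J controls, and in the other strains named the groups overlapped. In 129S1/SvImJ, Col1a1 ran from 9.30 through a median of 9.66 to 9.90 in controls and from 8.97 through 9.27 to 9.93 on CR, a change of -0.33 (SE 0.121). In C57BL/6J, Col1a1 ran from 9.48 through a median of 9.84 to 10.13 in controls and from 9.30 through 9.58 to 9.81 on CR, a change of -0.24 (SE 0.0883). In C3H/HeJ, Col1a1 ran from 9.36 through a median of 9.84 to 10.50 in controls and from 9.28 through 9.62 to 9.69 on CR, a change of -0.29 (SE 0.116). These groups overlapped too, with lower CR means in each. In BALB/cJ, Col1a1 ran from 8.93 through a median of 9.54 to 9.67 in controls and from 8.77 through 9.33 to 9.67 on CR, a change of -0.16 (SE 0.121). Col1a1 thus passed the within-strain test in CBA/J, B6C3F1/J and DBA/2J.

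Col1a2 in CBA/J had a lowest, median and highest value of 9.75, 9.85 and 10.39 on the control diet and of 9.07, 9.21 and 9.29 on CR, a difference of -0.73 (SE 0.0783, adjusted p = 4.09e-06). Col1a2 in B6C3F1/J had a lowest, median and highest value of 9.86, 9.97 and 10.28 on the control diet and of 9.31, 9.58 and 9.81 on CR, a difference of -0.47 (SE 0.0809, adjusted p = 0.000167). Col1a2 in DBA/2J had a lowest, median and highest value of 9.47, 9.79 and 10.01 on the control diet and of 9.37, 9.54 and 9.73 on CR, a difference of -0.25 (SE 0.0733, adjusted p = 0.109). CR and control mice did not overlap in CBA/J or in B6C3F1/J, whereas in DBA/2J they did. Col1a2 in 129S1/SvImJ had a lowest, median and highest value of 9.30, 9.65 and 9.71 on the control diet and of 8.91, 9.17 and 9.64 on CR, a difference of -0.41 (SE 0.0908, adjusted p = 0.00214). Col1a2 in C57BL/6J had a lowest, median and highest value of 9.44, 9.79 and 10.14 on the control diet and of 9.23, 9.53 and 9.75 on CR, a difference of -0.29 (SE 0.0934, adjusted p = 0.0393). Col1a2 in C3H/HeJ had a lowest, median and highest value of 9.25, 9.54 and 10.10 on the control diet and of 9.07, 9.35 and 9.48 on CR, a difference of -0.23 (SE 0.098). In 129S1/SvImJ and C57BL/6J the difference passed the within-strain test although the groups overlapped. Col1a2 in BALB/cJ had a lowest, median and highest value of 9.16, 9.69 and 9.87 on the control diet and of 8.89, 9.43 and 9.70 on CR, a difference of -0.24 (SE 0.112). Col1a2 thus passed in 5 strains, and 2.72% of all genes were lower at this threshold in at least 5 strains.

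Across the 112 mice, with the mean of each group subtracted, Col1a1 and Col1a2 correlated at r = 0.879 (Spearman rho 0.840, and r = 0.857 without the 2 mice farthest from the median). Col1a1 and Col3a1 correlated at r = 0.822. The changes of these pairs differed by -0.001 (SE 0.0199) and -0.0039 (SE 0.0259), with the first chain of each pair above the second in 4 of 7 strains. These correlations are descriptions over mice that share arrays of 1 platform. Col5a1 and Col5a2 correlated at r = 0.684, and the change of Col5a2 lay below that of Col5a1 in all 7 strains, by -0.11 (SE 0.0246) on average. Col3a1 passed within CBA/J at -0.80 (SE 0.115, adjusted p = 6.91e-05), within 129S1/SvImJ at -0.40 (SE 0.103, adjusted p = 0.00582), within B6C3F1/J and within DBA/2J, and in CBA/J its CR and control mice did not overlap. Col5a2 did not overlap in CBA/J either, with a change of -0.55 (SE 0.0997, adjusted p = 0.000577).

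Col5a3, the less common chain of collagen V, was the fibrillar chain that was higher over the strains. In C3H/HeJ, Col5a3 ran from 8.19 through a median of 8.38 to 8.67 in controls and from 8.60 through 8.79 to 8.86 on CR, a change of 0.40 (SE 0.0654, adjusted p = 0.00055). In B6C3F1/J, Col5a3 ran from 8.20 through a median of 8.33 to 8.53 in controls and from 8.40 through 8.78 to 8.87 on CR, a change of 0.41 (SE 0.0651, adjusted p = 6.59e-05). In 129S1/SvImJ, Col5a3 ran from 7.91 through a median of 8.07 to 8.32 in controls and from 8.10 through 8.28 to 8.40 on CR, a change of 0.20 (SE 0.0627, adjusted p = 0.0207). The groups overlapped in all 3. Values in the others were 0.26 (SE 0.124) in BALB/cJ, 0.058 (SE 0.104) in DBA/2J, -0.063 (SE 0.0934) in C57BL/6J and -0.075 (SE 0.098) in CBA/J, none past p under 0.01.

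Col4a1 and Col4a2, the main chains of the basement membrane, differed in their change by a similar amount in each strain. Averaged over the strains, Col4a1 changed by -0.11 (SE 0.0337, adjusted p = 0.00423) and Col4a2 by 0.083 (SE 0.0343, adjusted p = 0.0412), although both chains join in the same trimer. The increase of Col4a2 did not pass when 129S1/SvImJ was left out (0.058, adjusted p = 0.241), nor without BALB/cJ, C3H/HeJ or B6C3F1/J, nor under quantile normalization (0.072, adjusted p = 0.0747), and the decrease of Col4a1 did not pass without CBA/J (-0.074, adjusted p = 0.0894) or C57BL/6J. The chains had the same sign in 5 strains and opposite signs in DBA/2J and B6C3F1/J, where neither passed at p under 0.01. Col4a2 changed by 0.19 (SE 0.0183) more than Col4a1, with values between 0.17 and 0.22 in the 7 strains. Within groups the chains correlated at r = 0.856 (Spearman rho 0.791, and r = 0.766 without the 2 mice farthest from the median, n = 112 mice on the same arrays). Col4a3, Col4a4, Col4a5 and Col4a6, which form the networks of specialised membranes such as that of the kidney, lay between -0.045 and 0.062 over the strains and did not pass.

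Col4a1 and Col4a2 lie head to head on chromosome 8. The RefSeq transcript used for Col4a2 starts at chr8:11312805 on the plus strand of GRCm38.p6. That used for Col4a1 starts at chr8:11312826 on the minus strand, 21 bases apart. Both transcripts thus hold the 22 bases at chr8:11312805-11312826. The annotated genes overlap further, since the bounds of Col4a1 reach chr8:11312889. This shared stretch is shown because both chains start in it, and it is written on the plus strand. It lies outside the upstream windows searched for motifs and is left in lower case, but it holds the letters of the GC box core GGGCGG.
Col4a1 and Col4a2: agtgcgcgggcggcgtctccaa
In the 250 bases before the transcript start used, Col4a1 held 1 match to CCAAT, on the opposite strand, and none to GGGCGG. Col4a2 held 1 match to CCAAT and 2 to GGGCGG. The part of the Col4a1 window up to chr8:11312889 lies within its annotated gene.

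The 129S1/SvImJ mice gave Col4a2 at 8.997, 9.20 and 9.45 (lowest, median, highest) as controls and at 9.27, 9.49 and 9.62 under CR, which differ in the mean by 0.23 (SE 0.0717, adjusted p = 0.0202). The BALB/cJ mice gave Col4a2 at 8.92, 9.14 and 9.49 (lowest, median, highest) as controls and at 9.24, 9.36 and 9.47 under CR, which differ in the mean by 0.22 (SE 0.0733, adjusted p = 0.607). The C3H/HeJ mice gave Col4a2 at 9.25, 9.40 and 9.64 (lowest, median, highest) as controls and at 9.60, 9.63 and 9.74 under CR, which differ in the mean by 0.22 (SE 0.0554, adjusted p = 0.0118). These are the strains in which Col4a2 was higher at p under 0.01, all with overlapping groups, and in BALB/cJ it was the collagen gene past the test. The B6C3F1/J mice gave Col4a2 at 9.42, 9.57 and 9.79 (lowest, median, highest) as controls and at 9.46, 9.75 and 9.89 under CR, which differ in the mean by 0.15 (SE 0.0612). The DBA/2J mice gave Col4a2 at 8.94, 9.28 and 9.48 (lowest, median, highest) as controls and at 9.01, 9.30 and 9.49 under CR, which differ in the mean by 0.052 (SE 0.089). The C57BL/6J mice gave Col4a2 at 9.29, 9.59 and 9.88 (lowest, median, highest) as controls and at 8.59, 9.52 and 9.63 under CR, which differ in the mean by -0.17 (SE 0.127). In C57BL/6J the CR value of 8.59 was that of replicate 2. The CBA/J mice gave Col4a2 at 9.21, 9.35 and 9.56 (lowest, median, highest) as controls and at 8.44, 9.32 and 9.48 under CR, which differ in the mean by -0.13 (SE 0.117). The lowest CBA/J value was replicate 5, the mouse with the highest epididymis marker mean of its strain.

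In 129S1/SvImJ, Col4a1 ran from 9.15 through a median of 9.29 to 9.40 in controls and from 9.16 through 9.34 to 9.48 on CR, a change of 0.05 (SE 0.0549). In BALB/cJ, Col4a1 ran from 8.89 through a median of 9.12 to 9.43 in controls and from 9.03 through 9.12 to 9.36 on CR, a change of 0.013 (SE 0.0844). In C3H/HeJ, Col4a1 ran from 9.15 through a median of 9.38 to 9.58 in controls and from 9.30 through 9.39 to 9.49 on CR, a change of 0.03 (SE 0.0541). Col4a1 passed in none of the strains in which Col4a2 was higher. In B6C3F1/J, Col4a1 ran from 9.40 through a median of 9.51 to 9.59 in controls and from 9.29 through 9.51 to 9.63 on CR, a change of -0.015 (SE 0.0537). In DBA/2J, Col4a1 ran from 8.84 through a median of 9.34 to 9.51 in controls and from 8.90 through 9.02 to 9.31 on CR, a change of -0.17 (SE 0.0999). In C57BL/6J, Col4a1 ran from 9.46 through a median of 9.62 to 9.91 in controls and from 8.37 through 9.37 to 9.53 on CR, a change of -0.35 (SE 0.132). The lowest C57BL/6J value on CR was again replicate 2. In CBA/J, Col4a1 ran from 9.17 through a median of 9.43 to 9.55 in controls and from 8.42 through 9.14 to 9.24 on CR, a change of -0.33 (SE 0.1, adjusted p = 0.0239). CBA/J was the strain in which Col4a1 passed, and without CBA/J CR replicate 5 and the other arrays apart on principal components the CBA/J change was -0.24 (adjusted p = 0.00556), but under quantile normalization it did not pass (-0.30, adjusted p = 0.0529).

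**Figure D3:**
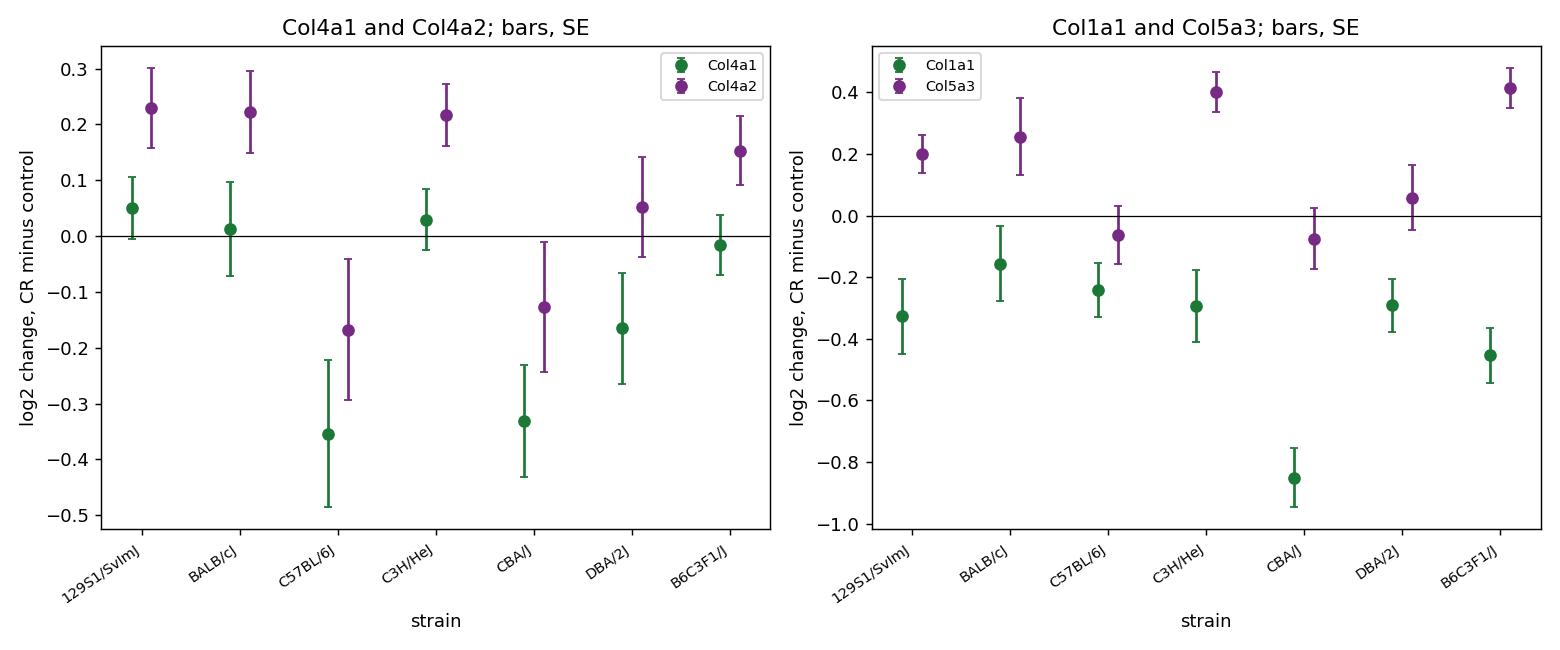
Log2 change CR minus control (points) with its SE (bars) in each strain for Col4a1 and Col4a2 (left) and Col1a1 and Col5a3 (right). Col4a2 lies above Col4a1 by 0.17 to 0.22 in every strain, and Col5a3 lies above Col1a1 in every strain.

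Of the Col6 chains, 3 were lower over the strains and 3 did not pass. Col6a3 changed by -0.29 (SE 0.0394, adjusted p = 4.4e-10) and Col6a2 by -0.13 (SE 0.042, adjusted p = 0.00664), while Col6a1 gave -0.046 (SE 0.0386, adjusted p = 0.361), although the chains assemble together. Col6a5, a chain related to Col6a3, changed by -0.43 (SE 0.0768, adjusted p = 1.04e-06), and its second probe set gave -0.16. Col6a4 and Col6a6 gave 0.087 and -0.036 and did not pass. The decrease of Col6a2 rested on CBA/J, since without that strain it was -0.029 (adjusted p = 0.682), and Col6a1 then turned to 0.041. The decrease of Col6a3 was present with each strain left out.

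In CBA/J, Col6a2 ran from 10.16 through a median of 10.36 to 10.55 in controls and from 9.14 through 9.61 to 9.93 on CR, a change of -0.74 (SE 0.101, adjusted p = 4.07e-05). In C3H/HeJ, Col6a2 ran from 9.53 through a median of 10.26 to 10.65 in controls and from 10.27 through 10.44 to 10.51 on CR, a change of 0.24 (SE 0.117). In B6C3F1/J, Col6a2 ran from 10.24 through a median of 10.36 to 10.63 in controls and from 9.96 through 10.24 to 10.42 on CR, a change of -0.16 (SE 0.0736). CBA/J was the strain with separate groups, all CR mice lying below all controls, and in C3H/HeJ the CR mean was the higher of the pair. In DBA/2J, Col6a2 ran from 9.24 through a median of 9.77 to 9.98 in controls and from 9.30 through 9.59 to 9.66 on CR, a change of -0.15 (SE 0.102). In C57BL/6J, Col6a2 ran from 9.19 through a median of 9.96 to 10.21 in controls and from 9.08 through 9.79 to 10.06 on CR, a change of -0.11 (SE 0.146). In 129S1/SvImJ, Col6a2 ran from 9.18 through a median of 9.52 to 9.77 in controls and from 9.24 through 9.39 to 9.73 on CR, a change of -0.045 (SE 0.0909). The lowest C57BL/6J values were control replicate 1 and CR replicate 2. In BALB/cJ, Col6a2 ran from 9.26 through a median of 9.36 to 9.75 in controls and from 9.20 through 9.50 to 9.77 on CR, a change of 0.054 (SE 0.0935). CBA/J was the strain in which Col6a2 passed.

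Col6a1 in CBA/J had a lowest, median and highest value of 10.07, 10.20 and 10.46 on the control diet and of 9.10, 9.75 and 9.997 on CR, a difference of -0.57 (SE 0.11, adjusted p = 0.00106). Col6a1 in C3H/HeJ had a lowest, median and highest value of 9.50, 10.06 and 10.46 on the control diet and of 10.16, 10.34 and 10.38 on CR, a difference of 0.25 (SE 0.101). Col6a1 in B6C3F1/J had a lowest, median and highest value of 10.10, 10.20 and 10.36 on the control diet and of 9.99, 10.15 and 10.44 on CR, a difference of 0.0081 (SE 0.0707). Again the CBA/J groups did not overlap, and again the C3H/HeJ mean was higher on CR, by an amount short of p under 0.01. Col6a1 in DBA/2J had a lowest, median and highest value of 9.31, 9.64 and 9.96 on the control diet and of 9.34, 9.64 and 9.75 on CR, a difference of -0.027 (SE 0.0902). Col6a1 in C57BL/6J had a lowest, median and highest value of 9.19, 9.84 and 9.99 on the control diet and of 9.18, 9.70 and 9.96 on CR, a difference of -0.047 (SE 0.121). Col6a1 in 129S1/SvImJ had a lowest, median and highest value of 9.07, 9.43 and 9.73 on the control diet and of 9.27, 9.46 and 9.72 on CR, a difference of 0.044 (SE 0.0939). All these groups overlapped. Col6a1 in BALB/cJ had a lowest, median and highest value of 9.13, 9.35 and 9.55 on the control diet and of 9.03, 9.38 and 9.66 on CR, a difference of 0.019 (SE 0.09). Col6a1 and Col6a2 correlated within groups at r = 0.921 (Spearman rho 0.897, n = 112), and the change of Col6a3 was below that of Col6a1 in all 7 strains, by -0.24 (SE 0.0298).

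The CBA/J mice gave Col6a3 at 8.70, 8.81 and 9.16 (lowest, median, highest) as controls and at 7.68, 8.02 and 8.33 under CR, which differ in the mean by -0.82 (SE 0.0916, adjusted p = 5.73e-06). These groups did not overlap. Col6a3 also passed in DBA/2J at -0.31 (SE 0.0844, adjusted p = 0.0854), where the adjusted p missed 0.05, and in B6C3F1/J at -0.32 (SE 0.0978, adjusted p = 0.0171). The 129S1/SvImJ mice gave Col6a5 at 7.52, 7.79 and 8.56 (lowest, median, highest) as controls and at 6.56, 7.13 and 7.46 under CR, which differ in the mean by -0.85 (SE 0.143, adjusted p = 0.00019). Here too no CR mouse reached a control. Col6a5 changed by -0.82 (SE 0.193, adjusted p = 0.00266) in B6C3F1/J with overlapping groups, and in CBA/J, where Col6a1, Col6a2 and Col6a3 fell, it gave 0.029 (SE 0.126). The F-test between strains gave Col6a5 an adjusted p of 0.12, and of 0.0313 with array weights.

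Col15a1 and Col18a1 parted as well. Over the strains Col15a1, which ties basement membranes to the fibres around them, changed by 0.15 (SE 0.0466, adjusted p = 0.00634), and Col18a1, the precursor of endostatin, by -0.16 (SE 0.0289, adjusted p = 9.24e-07). The increase of Col15a1 rested on 129S1/SvImJ: without that strain it was 0.047 (adjusted p = 0.512). The 129S1/SvImJ mice gave Col15a1 at 8.98, 9.63 and 9.81 (lowest, median, highest) as controls and at 9.96, 10.22 and 10.50 under CR, which differ in the mean by 0.74 (SE 0.118, adjusted p = 0.000102). The CBA/J mice gave Col15a1 at 10.50, 10.66 and 10.74 (lowest, median, highest) as controls and at 9.57, 10.37 and 10.50 under CR, which differ in the mean by -0.37 (SE 0.107, adjusted p = 0.0185). Both pairs of groups were separate, in opposite directions, the CBA/J groups touching at 10.50 to 2 decimals. Without the 4 CBA/J CR mice with high epididymis markers the decrease there was -0.26 (adjusted p = 0.0102). The DBA/2J mice gave Col15a1 at 9.43, 9.71 and 10.23 (lowest, median, highest) as controls and at 9.76, 10.05 and 10.34 under CR, which differ in the mean by 0.24 (SE 0.116). The BALB/cJ mice gave Col15a1 at 9.77, 9.85 and 10.09 (lowest, median, highest) as controls and at 9.74, 10.09 and 10.37 under CR, which differ in the mean by 0.21 (SE 0.0923). The B6C3F1/J mice gave Col15a1 at 10.58, 10.76 and 10.98 (lowest, median, highest) as controls and at 10.55, 10.94 and 11.18 under CR, which differ in the mean by 0.13 (SE 0.0827). In these strains the CR mean was higher and the groups overlapped. The C3H/HeJ mice gave Col15a1 at 10.20, 10.67 and 11.04 (lowest, median, highest) as controls and at 10.65, 10.81 and 10.87 under CR, which differ in the mean by 0.11 (SE 0.0881). The C57BL/6J mice gave Col15a1 at 9.47, 10.37 and 10.58 (lowest, median, highest) as controls and at 9.25, 10.28 and 10.59 under CR, which differ in the mean by -0.039 (SE 0.182). The lowest C57BL/6J values were control replicate 1 and CR replicate 2.

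Col18a1 in CBA/J had a lowest, median and highest value of 8.24, 8.48 and 8.66 on the control diet and of 7.93, 8.07 and 8.41 on CR, a difference of -0.37 (SE 0.0746, adjusted p = 0.00162). Col18a1 in C57BL/6J had a lowest, median and highest value of 8.18, 8.37 and 8.52 on the control diet and of 7.82, 8.20 and 8.28 on CR, a difference of -0.19 (SE 0.0725). Col18a1 in 129S1/SvImJ had a lowest, median and highest value of 8.02, 8.53 and 8.72 on the control diet and of 8.20, 8.29 and 8.42 on CR, a difference of -0.18 (SE 0.0768). The groups overlapped in all of these strains, and of them CBA/J passed at p under 0.01. Col18a1 in B6C3F1/J had a lowest, median and highest value of 8.45, 8.62 and 8.86 on the control diet and of 8.28, 8.43 and 8.60 on CR, a difference of -0.18 (SE 0.0615). Col18a1 in DBA/2J had a lowest, median and highest value of 7.96, 8.29 and 8.54 on the control diet and of 8.001, 8.19 and 8.35 on CR, a difference of -0.11 (SE 0.0812). Col18a1 in C3H/HeJ had a lowest, median and highest value of 8.25, 8.66 and 8.79 on the control diet and of 8.25, 8.51 and 8.69 on CR, a difference of -0.10 (SE 0.0789). Each CR mean was below its control mean. Col18a1 in BALB/cJ had a lowest, median and highest value of 7.81, 8.01 and 8.36 on the control diet and of 7.71, 8.06 and 8.27 on CR, a difference of -0.0091 (SE 0.0853). The F-test between strains gave Col18a1 an adjusted p of 0.166, and of 0.0267 with array weights.

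Of the 9 FACIT chains, 4 were lower and none higher over the strains. Col12a1, which bridges fibres, changed by -0.47 (SE 0.0675, adjusted p = 1.96e-09), the largest decrease of the 44 genes, and Col14a1, a related chain of the fibre surface, by -0.23 (SE 0.0479, adjusted p = 1.74e-05). Col16a1 and Col20a1 gave -0.076 (SE 0.029, adjusted p = 0.0259) and -0.10 (SE 0.0259, adjusted p = 0.00047), and the decrease of Col16a1 did not pass under quantile normalization (adjusted p = 0.096), nor without C57BL/6J (0.0991), C3H/HeJ (0.0612) or B6C3F1/J (0.237). Col9a1, Col9a2, Col9a3, Col19a1 and Col22a1 lay between -0.0043 and 0.084 and did not pass. Another FACIT gene, Col21a1, had no probe set with its symbol alone.

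In B6C3F1/J, Col12a1 ran from 7.99 through a median of 8.30 to 8.63 in controls and from 7.17 through 7.58 to 7.84 on CR, a change of -0.78 (SE 0.0997, adjusted p = 7.65e-06). In CBA/J, Col12a1 ran from 8.33 through a median of 8.53 to 8.82 in controls and from 7.24 through 7.74 to 8.35 on CR, a change of -0.85 (SE 0.138, adjusted p = 0.000244). In 129S1/SvImJ, Col12a1 ran from 7.88 through a median of 8.60 to 9.33 in controls and from 7.28 through 8.06 to 8.42 on CR, a change of -0.65 (SE 0.202, adjusted p = 0.0196). In B6C3F1/J no CR mouse reached a control, and in the other strains named the groups overlapped. In C3H/HeJ, Col12a1 ran from 7.95 through a median of 8.70 to 8.84 in controls and from 7.89 through 8.17 to 8.26 on CR, a change of -0.44 (SE 0.111, adjusted p = 0.0119). In C57BL/6J, Col12a1 ran from 6.87 through a median of 7.65 to 8.08 in controls and from 6.54 through 6.77 to 8.82 on CR, a change of -0.62 (SE 0.274). In DBA/2J, Col12a1 ran from 8.03 through a median of 8.56 to 8.96 in controls and from 8.07 through 8.55 to 8.79 on CR, a change of -0.018 (SE 0.143). The C57BL/6J CR value of 8.82 was replicate 2, the next being 6.87. In BALB/cJ, Col12a1 ran from 7.18 through a median of 7.33 to 7.52 in controls and from 6.84 through 7.48 to 7.71 on CR, a change of 0.033 (SE 0.116). DBA/2J and BALB/cJ were the strains with a change near 0.

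Col14a1 in CBA/J had a lowest, median and highest value of 8.96, 9.11 and 9.47 on the control diet and of 8.26, 8.43 and 8.67 on CR, a difference of -0.72 (SE 0.0834, adjusted p = 8.22e-06). Col14a1 in 129S1/SvImJ had a lowest, median and highest value of 8.17, 8.69 and 9.12 on the control diet and of 7.81, 8.08 and 8.52 on CR, a difference of -0.53 (SE 0.123, adjusted p = 0.00304). Col14a1 in BALB/cJ had a lowest, median and highest value of 8.27, 9.004 and 9.38 on the control diet and of 7.73, 8.83 and 9.06 on CR, a difference of -0.24 (SE 0.175). The CBA/J groups did not overlap, and the 129S1/SvImJ groups overlapped. Col14a1 in C57BL/6J had a lowest, median and highest value of 7.91, 8.93 and 9.12 on the control diet and of 8.39, 8.65 and 9.05 on CR, a difference of -0.13 (SE 0.147). Col14a1 in DBA/2J had a lowest, median and highest value of 8.73, 9.28 and 9.75 on the control diet and of 8.97, 9.23 and 9.40 on CR, a difference of -0.058 (SE 0.113). Col14a1 in C3H/HeJ had a lowest, median and highest value of 8.63, 8.80 and 9.31 on the control diet and of 8.70, 8.90 and 9.06 on CR, a difference of 0.016 (SE 0.0873). None of these passed. Col14a1 in B6C3F1/J had a lowest, median and highest value of 8.88, 8.999 and 9.23 on the control diet and of 8.88, 9.08 and 9.21 on CR, a difference of 0.032 (SE 0.0639). Col12a1 and Col14a1 correlated within groups at r = 0.400 (Spearman rho 0.475, n = 112), and r = 0.487 without the 2 mice farthest from the median.

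**Figure D4:**
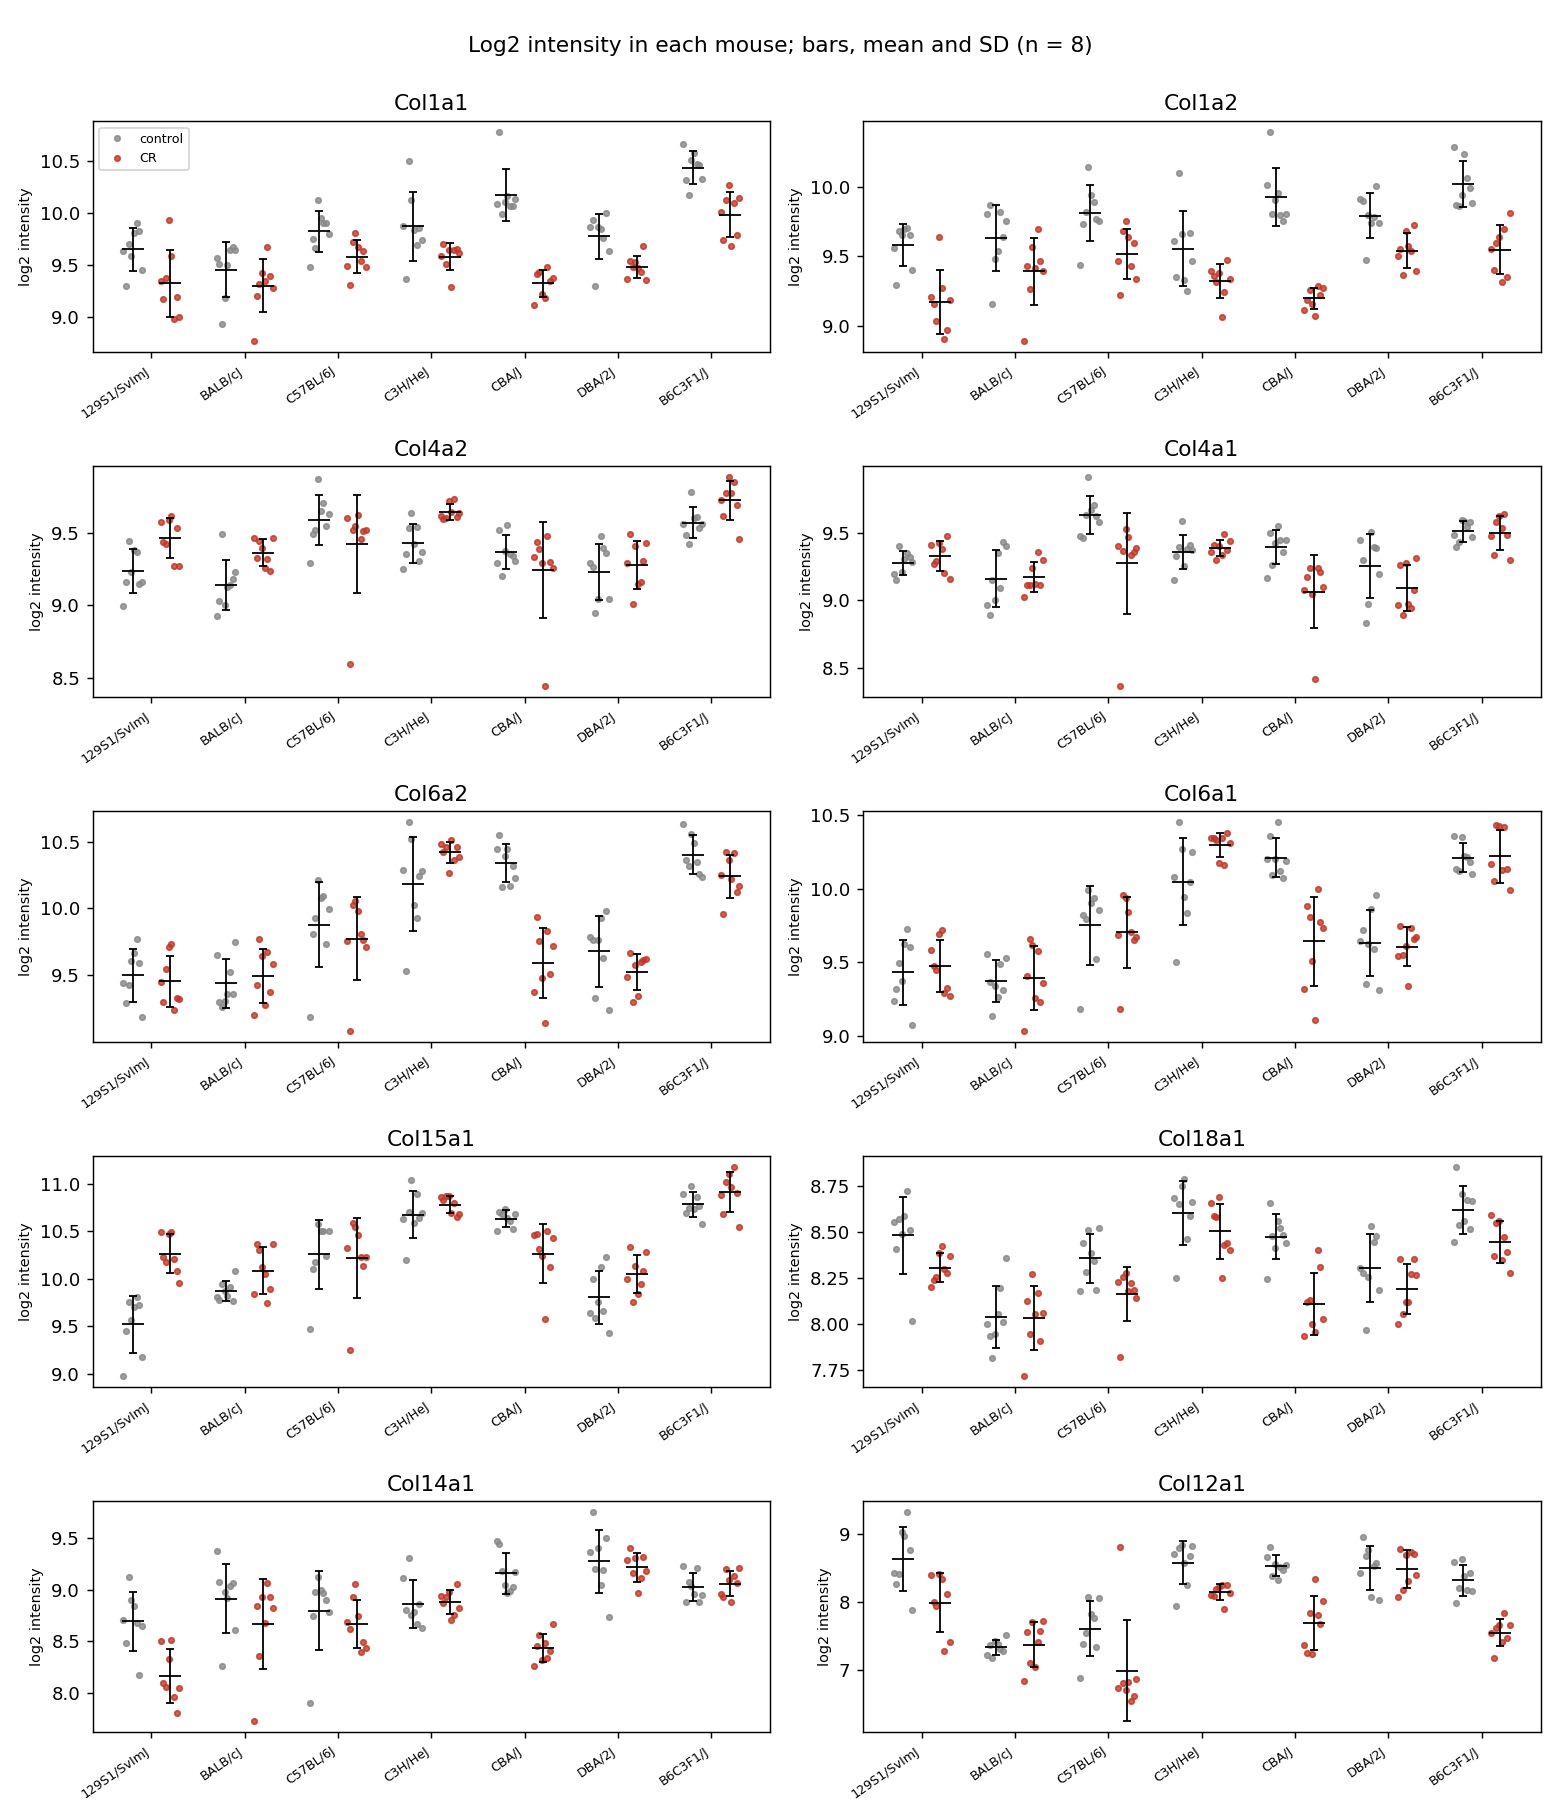
Log2 intensity of the 10 chains given in full, 2 from each of 5 classes, in each mouse (points; grey control, red CR), with the mean and SD of 8 mice as bars. Each panel has its own axis; CBA/J CR points lie below its controls for Col1a1, Col1a2, Col6a1, Col6a2, Col14a1 and Col15a1, and 129S1/SvImJ CR points lie above its controls for Col15a1.

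Of the network-forming chains, Col8a1, a chain of the collagen VIII lattice of vessel walls, changed by -0.31 (SE 0.0397, adjusted p = 3.51e-11) and had a lower mean on CR in all 7 strains. In CBA/J, Col8a1 ran from 8.11 through a median of 8.19 to 8.45 in controls and from 7.37 through 7.55 to 7.73 on CR, a change of -0.67 (SE 0.0697, adjusted p = 2.97e-06). In C57BL/6J, Col8a1 ran from 7.47 through a median of 7.69 to 7.92 in controls and from 6.91 through 7.22 to 7.53 on CR, a change of -0.50 (SE 0.0906, adjusted p = 0.00125). The groups were separate in CBA/J and overlapped in C57BL/6J. Its partner Col8a2 gave 0.019 and Col10a1 gave -0.031, and neither passed. None of the membrane-spanning chains Col13a1, Col17a1, Col23a1 and Col25a1, between 0.018 and 0.060, passed over the strains, nor did Col7a1, Col26a1 and Col28a1, between 0.0076 and 0.081. Within strains, Col25a1 in 129S1/SvImJ at 0.25 (SE 0.0815, adjusted p = 0.0264) and Col4a4 in CBA/J at 0.18 (SE 0.063, adjusted p = 0.0456) were higher on CR, the latter not without the arrays high in epididymis markers (0.14, adjusted p = 0.242). In B6C3F1/J the chains Col6a6, Col9a1, Col24a1 and Col27a1, none of which passed over the strains, were lower at p under 0.01 with changes between -0.21 and -0.15. Of these, Col9a1 and Col24a1 had mean signals of 6.66, below the median of all probe sets. Fewer collagen genes were lower in this strain with median centring, as given above.

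All CR mice lay below all controls for 10 of the 44 genes in CBA/J, where 5.69% of all genes did so, namely Col1a1, Col1a2, Col3a1, Col5a2, Col6a1, Col6a2, Col6a3, Col8a1, Col14a1 and Col15a1. The groups were separate in the same direction for 2 genes in B6C3F1/J, where the share of all genes was also 5.69%, and for 1 in 129S1/SvImJ, where it was 4.31%. All CR mice lay above all controls for 1 gene, Col15a1 in 129S1/SvImJ, where 3.42% of genes did so. In CBA/J and B6C3F1/J no collagen gene had all CR mice above, where 1.39% and 6.95% of all genes did. No collagen gene had separate groups in the other strains, where the shares of all genes below and above were 0% and 0.00502% in BALB/cJ, 1.87% and 2.63% in C57BL/6J, 0.492% and 1.85% in C3H/HeJ and 0.135% and 0.0702% in DBA/2J.

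The CR effect differed between strains for 14 of the 44 genes by an F-test of the 7 CR effects against each other (limma, adjusted p under 0.05), against 19% of all genes. The smallest p-values were those of Col6a2 (adjusted p = 5.33e-05), Col15a1 (6.17e-05), Col6a1 (0.00052), Col6a3 (0.000569) and Col14a1 (0.00188). With array weights 21 genes passed. Without the arrays high in epididymis markers 8 passed, Col12a1, Col14a1, Col15a1, Col4a1, Col5a3, Col6a1, Col6a2 and Col6a3. Without CBA/J 4 passed, Col15a1, Col5a3, Col12a1 and Col24a1, and Col6a1, Col6a2 and Col6a3 had adjusted p of 0.489, 0.257 and 0.553. Without 129S1/SvImJ the F-test of Col15a1 gave an adjusted p of 0.0521.

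BALB/cJ CR mice were given the amount of food that controls of the other strains were given. The CR effect in this strain was set against the mean of the other 6 strains. None of the 44 genes passed (limma), against 3.25% of all genes, and 3 (Col1a1, Col12a1 and Col18a1) had an unadjusted p under 0.05. The nearest was Col12a1, whose change was 0.59 (SE 0.193, adjusted p = 0.0713) higher in BALB/cJ. It passed with array weights (0.69, adjusted p = 0.00323) and without the arrays high in epididymis markers (0.65, adjusted p = 0.011). The threshold not being reached does not show that BALB/cJ responded like the other strains.

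On the control diet, the level of 21 of the 44 genes differed between strains, against 56.6% of all genes. Col15a1 (adjusted p = 9.4e-20), Col6a2 (1.02e-16), Col6a1 (5.58e-16), Col6a3 (1.32e-13) and Col1a1 (7.52e-13) had the smallest p-values. Col15a1 was ordered from 9.52 ± 0.303 (mean ± SD, n = 8) in 129S1/SvImJ through 9.80 ± 0.281 in DBA/2J, 9.87 ± 0.108 in BALB/cJ and 10.26 ± 0.363 in C57BL/6J to 10.64 ± 0.0846 in CBA/J, 10.68 ± 0.247 in C3H/HeJ and 10.78 ± 0.128 in B6C3F1/J. Neighbours in this order were not tested against each other, and each neighbouring pair differed by less than the sum of its SDs. Col6a2 was ordered similarly, from 9.44 ± 0.18 in BALB/cJ and 9.50 ± 0.197 in 129S1/SvImJ to 10.34 ± 0.144 in CBA/J and 10.40 ± 0.145 in B6C3F1/J. For Col1a1, B6C3F1/J at 10.43 ± 0.157 and CBA/J at 10.17 ± 0.251 were highest and BALB/cJ at 9.45 ± 0.264 lowest. On CR, Col1a1 in CBA/J stood at 9.32 ± 0.129, between the CR means of BALB/cJ and 129S1/SvImJ.

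Genes that process, bind, sense and degrade collagens were listed by role. Their counts stand against 22% of all genes lower and 21.9% higher by the test over the strains. The lists were chosen with earlier results of these data known, so the counts are descriptions. The shares cover all genes, dim ones included, while the mean signals of the fibre-binding list lay between 9.07 and 13.12. Of 22 measured genes for hydroxylation, folding and export of procollagen, 9 were lower and 3 higher, with the largest decreases in Creb3l1, a transcription factor that activates collagen genes, at -0.74 (SE 0.0513, adjusted p = 3.18e-24), and P3h2, a prolyl 3-hydroxylase, at -0.42 (SE 0.0418, adjusted p = 1.21e-15). The largest increases in that list were Tmem38b, an endoplasmic reticulum cation channel, at 0.56 (SE 0.049, adjusted p = 2.82e-18), and Colgalt2, a collagen galactosyltransferase, at 0.17 (SE 0.0336, adjusted p = 4.94e-06). Serpinh1, the collagen chaperone, gave 0.085 (SE 0.0382, adjusted p = 0.063). Of 12 genes for propeptide removal and cross-linking, 8 were lower and 2 higher, led by Lox, lysyl oxidase, at -0.67 (SE 0.0598, adjusted p = 6.6e-18), and Pcolce2, an enhancer of procollagen cleavage, at -0.51 (SE 0.0662, adjusted p = 8.74e-11), while the proteinases Tll2 and Tll1 rose by 0.20 and 0.12.

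Of 11 matrix proteins that bind fibres, 10 were lower and none higher, Fn1, fibronectin, by -0.53 (SE 0.0607, adjusted p = 6.34e-13) and Postn, periostin, by -0.50 (SE 0.0403, adjusted p = 2.06e-20) the most. Of 14 partners in the basement membrane, 7 were lower, with Nid1, a laminin-binding linker, at -0.35 (SE 0.0385, adjusted p = 2.17e-13) and Hspg2, perlecan, at -0.30 (SE 0.0384, adjusted p = 6.05e-11), and 1 was higher, Nid2 at 0.24 (SE 0.0423, adjusted p = 4.78e-07), a paralogue of Nid1. Of 9 collagen receptors, 6 were lower, led by Mrc2, which takes up cleaved collagen, at -0.65 (SE 0.0724, adjusted p = 2.68e-13) and Lair1, an inhibitory receptor of immune cells, at -0.53 (SE 0.0592, adjusted p = 1.87e-13). Of 9 genes for breakdown, 7 were lower, including Ctsk, cathepsin K, at -0.94 (SE 0.0692, adjusted p = 1.11e-22) and Mmp14, a membrane-bound metalloproteinase, at -0.61 (SE 0.0439, adjusted p = 3.02e-23). The medians of these 6 lists were -0.049, -0.15, -0.32, -0.079, -0.16 and -0.38 in the order given, where that of all genes was 0.0076.

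Within groups, the 10 dimmer genes correlated with each other at a median r of 0.647 over 45 pairs, ranging from -0.050 to 0.849. The 34 brighter genes had a median r of 0.181 over 561 pairs, ranging from -0.411 to 0.938. The highest of these was Col7a1 with Col11a2, so high correlation was not confined to the dimmer genes. Col1a1, Col1a2, Col3a1 and Col5a2 had a median r of 0.831 over 6 pairs. For each chain given in full, the members with the closest pattern over the 112 mice were Col1a2 for Col1a1 (r = 0.879), Col4a2 for Col4a1 (r = 0.856) and for Col15a1 (r = 0.774), Col6a2 for Col6a1 (r = 0.921), Col6a1 for Col18a1 (r = 0.653), Col1a2 for Col14a1 (r = 0.681) and Col14a1 for Col12a1 (r = 0.400). All pairs share arrays, so a common shift of an array adds to each value.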

How the data were processed

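RNA of epididymal white adipose tissue from 112 male mice was hybridised to Affymetrix Mouse Gene 1.0 ST arrays, 8 per strain and diet, with groups taken from the labels. The authors summarised probes with Affymetrix Expression Console and RMA, as the submitters' processing notes and the methods give them, and deposited log2 values, which were not rescaled here. RMA compresses dim signals, and precision is set by how many arrays a group holds. Of 35556 probe sets, 12146 were not listed in the annotation table and 1621 carried several symbols, and neither kind was used. The probe set with the highest mean signal stood for each gene. Sequences are from RefSeq on GRCm38.p6.

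A model of the 14 groups was fitted with limma 3.58.1 (R 4.3.3) for the mean CR effect, the F-tests between strains and the BALB/cJ contrast (Benjamini-Hochberg over 19938 genes, threshold 0.05), and another to the 16 arrays of each strain (unadjusted p under 0.01). Adjusted p-values are limma's throughout. Python 3.11.15 was used for sequences and plots. The fits were tested on simulated data. Alternatives covered normalization, filters, array weights, probe set choice, left-out mice, strains and arrays, and the replicate block.

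The collagen members and all gene lists were chosen with earlier results of these data known. By the rule for names, values in full were given for the 2 brightest chains of each of 5 classes, and further names were the 5 largest changes in each direction, the 5 smallest p of each F-test, the 2 smallest p per direction in each strain and the 2 largest changes per direction of each pathway list. Other genes were named after their values were seen. The labels give biological replicates, and p-values weigh the differences between groups against the spread between mice.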

Additional observations from a re-analysis of the deposited data

Results flagged for a closer look

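In the groups of 8 mice of the 10 chains given in full, 18 of 140 groups held a mouse whose gap to its nearest neighbour was, as a share of the group's range, above Dixon's critical value. Chance gives about 1 in 20 groups, but the chains were measured in the same mice and correlate, so the flags are not independent. C57BL/6J CR replicate 2 was flagged for Col4a2 (8.59), Col4a1 (8.37), Col6a2 (9.08), Col6a1 (9.18), Col15a1 (9.25) and Col18a1 (7.82), in each the lowest, and for Col12a1 (8.82), the highest. Its epididymis marker mean was the highest of all arrays at 11.51. CBA/J CR replicate 5, with a mean of 11.42, was the lowest for Col4a2 (8.44), Col4a1 (8.42) and Col15a1 (9.57). The part of these markers in the collagen values was not tested. C57BL/6J control replicate 1 was the lowest for Col6a2 (9.19), Col15a1 (9.47) and Col14a1 (7.91). CBA/J control replicate 2 was the highest for Col1a1 (10.78) and Col1a2 (10.39). The others were C3H/HeJ CR replicate 5 for Col1a1 (9.28), 129S1/SvImJ control replicate 8 for Col18a1 (8.02) and C3H/HeJ CR replicate 6 for Col12a1 (7.89).

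For 14 chains the F-test (limma) found unequal CR effects among the strains. The adjusted p-values were 5.33e-05 for Col6a2, 6.17e-05 for Col15a1, 0.00052 for Col6a1, 0.000569 for Col6a3, 0.00188 for Col14a1, 0.00392 for Col5a3 and 0.00664 for Col1a1. They were 0.0138 for Col12a1, 0.0145 for Col5a2, 0.0161 for Col4a1, 0.0174 for Col8a1, 0.0183 for Col1a2, 0.0261 for Col4a2 and 0.0374 for Col3a1.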

How the results depend on the processing

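The counts of 15 lower and 3 higher collagen genes over the strains held without the arrays that stood apart. Higher genes numbered 5 with array weights and 1 without 129S1/SvImJ. Genes whose CR effect differed between strains numbered 21 with array weights, 8 without the arrays high in epididymis markers and, in an alternative chosen after seeing the data, 4 without CBA/J. The BALB/cJ contrast called 1 gene, Col12a1, with array weights, with a filter on dim genes, and without the arrays apart on epididymis markers or on principal components. Within strains, quantile normalization gave 0 genes in BALB/cJ and 6 in C57BL/6J, and median centring gave 1 in C57BL/6J and 8 in B6C3F1/J. Array weights gave 5 in BALB/cJ, 9 in C57BL/6J and 5 in C3H/HeJ. Without the arrays high in epididymis markers 1 was called in C57BL/6J and 2 in DBA/2J, and without those apart on principal components 1 in DBA/2J. An adjusted p under 0.05 gave 0 in BALB/cJ and 0 in DBA/2J, and 1 model of all arrays gave 8 in C57BL/6J. The replicate block gave 3 in BALB/cJ and 5 in C57BL/6J. The labels do not say that replicate numbers pair the mice. Between 1 and 5 of 8 pairs of equal number per strain correlated above 0.1. The median r ran from -0.203 in DBA/2J to 0.306 in C3H/HeJ. Whether the numbers mark a pairing or a batch was not tested. Leaving out 1 mouse at a time gave between 6 and 16 genes in 129S1/SvImJ (16 without control replicate 7), 0 and 4 in BALB/cJ, 1 and 6 in C57BL/6J (6 without control replicate 1), 3 and 4 in C3H/HeJ, 10 and 17 in B6C3F1/J, 14 and 15 in CBA/J and 3 and 4 in DBA/2J. The difference between Col4a2 and Col4a1 was 0.21 without the epididymis-high arrays. Without CBA/J the change of Col6a1 over the strains turned from -0.046 to 0.041. Of the other values for single genes, 920 kept direction and side of the threshold and 73 kept direction but no longer passed. The cause of these shifts was not tested. Background was not measured here, so whether dim signal limits the 10 dimmer chains was not tested. The median of all genes moved by less than 0.1 under each scaling.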
